A study of Mus musculus with 108 samples.

Results

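The genes described here make, package, take up and break down the inhibitory transmitter GABA, or set the chloride gradient on which its receptors draw. They are Gad1, Gad2, Slc32a1, Slc6a11, Abat, Slc12a2 and Slc12a5, 7 of the 53465 genes in the count table, chosen by name and matched by Ensembl gene identifier. RNA-seq was performed on 3 brain regions, the cerebral cortex (CX), the cerebellum (CB) and the hippocampus (HIP), of 36 mice, 6 WT and 6 Cul3+/- (mutant) mice at each of E17.5 (embryos), P7 (pups) and P35 (adults), with 1 library per mouse and region. All mice shared the C57BL/6N background, which the labels spell C56Bl/6N. WT mice carried no engineered allele, and mutant mice carried 1 intact copy of Cul3, the gene of a ubiquitin ligase scaffold. The other copy held a germline frameshift insertion of 1 bp in exon 6, made with CRISPR/Cas9 and bred from a single founder, so the line traces to 1 edited chromosome. For 2 adult mice the labels and the study's quality control table disagreed on the genotype, and their 6 libraries were left out, so that 102 libraries from 34 mice entered the comparisons, 5 against 5 mice in adults. The sex of the mice is not in the labels.

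GABA is made from glutamate by the decarboxylases GAD67 (Gad1) and GAD65 (Gad2), loaded into synaptic vesicles by VGAT (Slc32a1), cleared from the extracellular space by transporters such as the largely astrocytic GAT3 (Slc6a11) and degraded by GABA transaminase (Abat). Whether an open GABA-A receptor depolarizes or hyperpolarizes a neuron depends on its intracellular chloride, which the cotransporter NKCC1 (Slc12a2) raises and the neuronal cotransporter KCC2 (Slc12a5) lowers. In the maturing forebrain KCC2 is known to increase as neurons differentiate, and NKCC1 is also made outside neurons, among other places in the choroid plexus.

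Promoter sequence is shown for the GABA-neuron genes Gad1, Gad2 and Slc32a1 and for both annotated starts of Slc12a5, because these genes rose together between E17.5 and P7 in CX and HIP. Slc6a11 and Abat rose in the same step and are not printed, Abat for want of a promoter entry. Each run is 300 bases, from 250 bases before the annotated start to 50 after it, 5′ to 3′ on the + strand, from RefSeq on build GRCm38.p6. Gad1 was read from chr2:70561879-70562178, Gad2 from chr2:22622077-22622376, Slc32a1 from chr2:158610508-158610807, and Slc12a5 from chr2:164960596-164960895 and chr2:164967738-164968037. Capitals mark matches, on either strand, to the GC box GGGCGG, the TATA box TATAAA or the E box CACGTG.
Gad1: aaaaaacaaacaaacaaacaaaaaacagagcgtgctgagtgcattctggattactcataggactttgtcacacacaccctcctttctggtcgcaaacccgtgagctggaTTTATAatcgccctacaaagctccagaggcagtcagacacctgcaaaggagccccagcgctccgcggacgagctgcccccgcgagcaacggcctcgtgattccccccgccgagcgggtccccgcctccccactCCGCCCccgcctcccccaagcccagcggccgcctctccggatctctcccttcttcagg
Gad2: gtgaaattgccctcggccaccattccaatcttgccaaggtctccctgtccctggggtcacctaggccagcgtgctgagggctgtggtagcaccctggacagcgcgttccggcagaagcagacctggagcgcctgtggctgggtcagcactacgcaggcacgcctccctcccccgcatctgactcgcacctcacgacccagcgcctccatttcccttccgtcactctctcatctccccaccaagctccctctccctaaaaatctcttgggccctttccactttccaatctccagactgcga
Slc32a1: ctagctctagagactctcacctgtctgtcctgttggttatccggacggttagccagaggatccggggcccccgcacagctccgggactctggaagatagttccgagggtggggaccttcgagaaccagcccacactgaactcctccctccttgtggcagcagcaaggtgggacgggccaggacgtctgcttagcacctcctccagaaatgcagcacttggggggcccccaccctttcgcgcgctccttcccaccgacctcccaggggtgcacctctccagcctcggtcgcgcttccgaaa
Slc12a5, upstream start: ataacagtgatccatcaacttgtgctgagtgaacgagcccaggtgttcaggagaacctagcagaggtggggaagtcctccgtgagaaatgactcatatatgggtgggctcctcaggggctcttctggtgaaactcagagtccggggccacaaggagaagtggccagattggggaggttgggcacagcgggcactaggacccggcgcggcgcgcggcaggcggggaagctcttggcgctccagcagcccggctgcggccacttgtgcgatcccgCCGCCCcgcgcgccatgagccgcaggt
Slc12a5, downstream start: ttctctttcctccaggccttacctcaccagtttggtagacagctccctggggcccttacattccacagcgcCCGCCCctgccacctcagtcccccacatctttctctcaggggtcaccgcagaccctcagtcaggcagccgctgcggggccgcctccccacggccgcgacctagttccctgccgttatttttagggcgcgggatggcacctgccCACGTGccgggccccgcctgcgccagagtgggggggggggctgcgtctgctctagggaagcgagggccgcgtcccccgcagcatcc

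RefSeq held a promoter entry for 5 of the 7 genes, the fifth being Slc6a11. Its window had 4 GC boxes, 32 CpG dinucleotides and a GC content of 72.3%. Of 32851 mouse promoters of the same length, 35.7% held a GC box, 13.6% the TATA box letters and 7.15% the E box letters, while 5.29% held the homeodomain core TAATTA, which none of the windows printed above contained. The Gad1 window had 1 GC box and 1 match to the TATA box letters, which reads TTTATA and lies well before the annotated start. Each Slc12a5 window had 1 GC box, and the downstream Slc12a5 window also had the E box. Gad2 and Slc32a1 matched none of these letters. The printed windows were all GC rich, from 60% in Gad1 to 68.3% in the downstream Slc12a5 window against a median of 52.7% over all promoters, with 14 CpG dinucleotides in Gad2, 17 in Slc32a1 and 21 in each of the other printed windows against a median of 7.

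Library totals ran from 15126114 to 44411282 counts, with a median of 32663960. Expression is given as CPM, the share of a library's counts scaled to a fixed total, on library sizes normalized by the trimmed mean of M values (TMM). Mean Cul3 expression in mutant mice was between 50.1% and 61.0% of that in WT mice over the 9 combinations of period and region, with no overlap between genotypes in any of them. The dissections carried the markers of their regions: the 4 Purkinje cell markers averaged 6.63 to 10.3 log2 CPM in the WT groups of CB and 1.46 to 4.59 in those of CX and HIP, and the 4 markers of excitatory forebrain neurons averaged 5.08 to 7.45 in CX and HIP and 2.22 to 3.21 in CB. Single mice were the replicates, and these were bulk tissue samples, in which fewer cells of a type and less RNA per cell cannot be told apart.

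Each of the 7 genes was detected in every library with at least 92 counts, and large differences in level followed age and region. Over the 9 WT groups Slc12a5 spanned the widest range, from 22.1 CPM in E17.5 CX to 593 CPM in adult CX, 26.8-fold. Gad1 spanned 16.03-fold, Abat 11.9-fold, Slc32a1 8.59-fold, Slc6a11 7.71-fold, Gad2 5.79-fold and Slc12a2 3.48-fold. For 5 of the 7 the WT maximum lay in an adult group of CB or CX, for Gad2 it lay in adult HIP (146 CPM), and for Slc6a11 it lay at P7 in HIP (199 CPM).

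**Figure D1:**
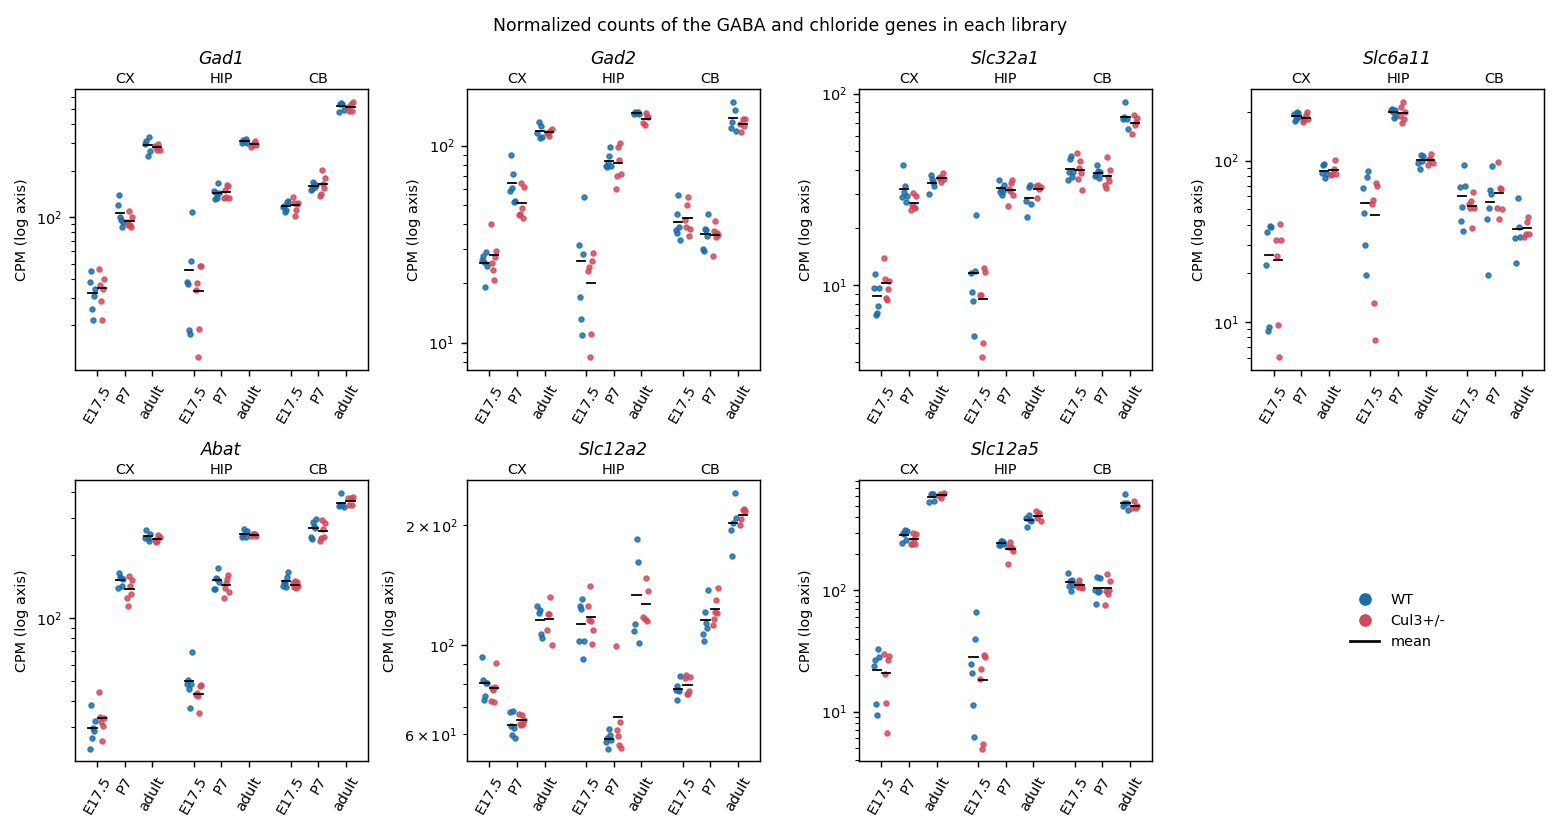
CPM (log axis) of the 7 genes in each library, by region and age, with WT mice in blue and Cul3+/- mice in red; bars mark the group means. Genotypes overlap in every group, while 6 of the genes sit well apart between E17.5 and P7 in CX, for example Slc12a5 at 22.1 and 288 CPM in WT mice.

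Per kilobase of the longest coding transcript, the order of the genes in CX turned over with age. At E17.5 Slc12a2 was the highest of the 7, at 12.4 CPM per kb, followed by Gad1 (9.68 CPM per kb), Abat (6.45), Slc6a11 (6.25), Gad2 (4.41), Slc12a5 (3.67) and Slc32a1 (3.15). In adult CX Slc12a5 was the highest at 98.4 CPM per kb, Gad1 stood at 86.8 and Abat at 53.4, and Slc12a2 was second lowest at 17.8, above Slc32a1 at 12.2. In adult CB Gad1 led with 155 CPM per kb. Over merged exons instead of the longest transcript, Slc12a2 remained the highest of the 7 in E17.5 CX (7.38 CPM per kb) and Slc12a5 in adult CX (79.6), whereas Gad1 dropped to 4.25 and 38.1 CPM per kb, because its merged exons are much longer than its longest coding transcript.

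Age was compared between successive periods in WT mice of each region, and a gene was called where edgeR's quasi-likelihood test gave a Benjamini-Hochberg adjusted p of at most 0.1 over all genes tested and the fitted change was at least 2-fold. From E17.5 to P7, 6 of the 7 genes rose in CX (background: 21.2% of all genes tested rose and 14.9% fell) and the same 6 genes, all but Slc12a2, rose in HIP (16.7% rose and 13% fell), whereas none was called in CB (9.19% rose and 9.8% fell). From P7 to adult, CX had 2 rises and 1 fall (10.5% rose and 11.3% fell), HIP had 2 rises (7.98% rose and 10.2% fell) and CB had 3 rises (16.3% rose and 17.3% fell). The median log2 fold change of the 7 genes from E17.5 to P7 was 1.79 in CX, 1.65 in HIP and −0.09 in CB, and that of all genes tested was −0.03, −0.03 and −0.02. From P7 to adult the medians were 0.91, 0.76 and 0.95, against −0.03, −0.01 and −0.00 over all genes.

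**Figure D2:**
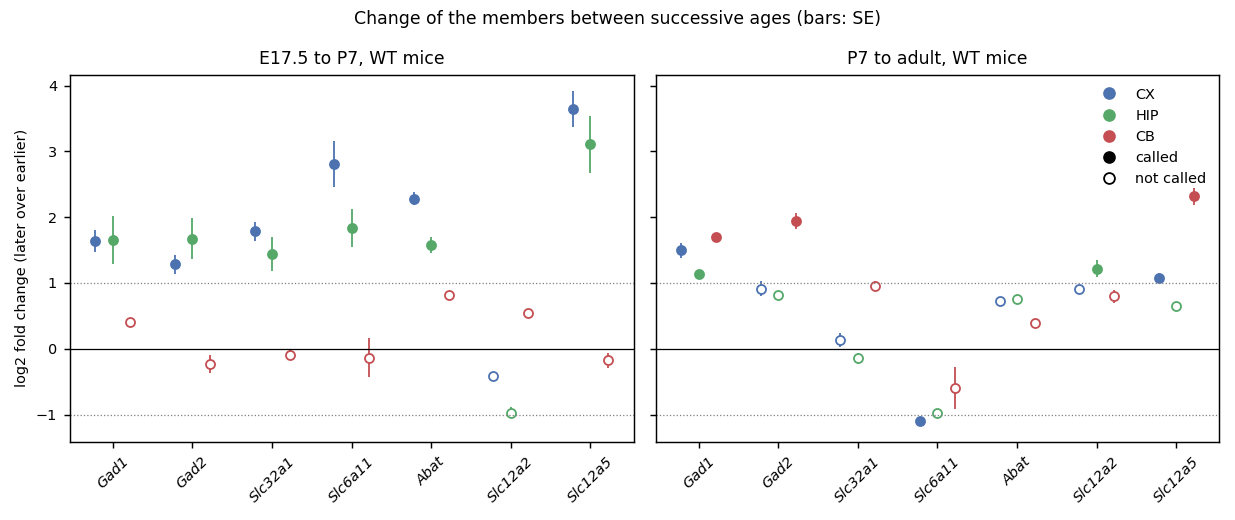
Log2 fold change of each gene between successive ages in WT mice of CX, HIP and CB, with its SE as a bar; filled points were called and dotted lines mark 2-fold. In the first step 6 genes rise in CX and HIP and none is called in CB, and in the second step Slc12a5 (2.32), Gad2 (1.94) and Gad1 (1.70) rise in CB.

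Gad1 encodes the decarboxylase that supplies most GABA in the brain, and its promoter window is the first one printed above. In WT CX it ranged from 21.5 to 44.98 CPM at E17.5 (median 32.6), from 85.8 to 138 at P7 (median 98.4), and was 249, 268, 298, 309 and 332 CPM in the 5 adults. No library of a later age fell within the range of an earlier one. The rises were 1.64 (SE 0.17, adjusted p = 1.04e-06) and 1.495 (SE 0.11, adjusted p = 3.28e-08) on the log2 scale.

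In HIP the embryonic Gad1 values were the most spread, from 17.47 to 108 CPM with a median of 37.3, while P7 libraries held 131 to 167 and adults 303 to 323. The step from E17.5 to P7 was 1.65 (SE 0.36, adjusted p = 0.00106) and that to adult 1.13 (SE 0.055, adjusted p = 1.70e-10). Embryonic CB already held 108 to 127 CPM of Gad1, above every embryonic CX library, and it was at 149 to 168 at P7, a change of 0.41 (SE 0.048) that stayed under 2-fold. Adult CB libraries held 483, 492, 539, 541 and 548 CPM, the highest Gad1 levels of the series, after a rise of 1.70 (SE 0.054, adjusted p = 1.14e-11).

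Gad2, the decarboxylase enriched at nerve terminals, followed the same course in the forebrain at a lower level. WT CX libraries held 19.2 to 28.7 CPM at E17.5 (median 25.997) and 52.1 to 89.8 at P7 (median 59.8), a rise of 1.28 (SE 0.14, adjusted p = 1.27e-06). The 5 adults had 109, 110, 116, 125 and 133 CPM, all above the P7 range, and the step of 0.92 (SE 0.12) was short of 2-fold, although it reached 1.03 without WT replicate 2 of P7, the library at 89.8 CPM. HIP rose from a median of 22.7 CPM (10.96 to 54.6) to 80.5 CPM at P7, by 1.68 (SE 0.32, adjusted p = 0.000349), and adults lay between 144 and 149 CPM, 0.82 (SE 0.058) above P7.

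The cerebellum differed in that Gad2 stood at a median of 38.0 CPM at E17.5 and 36.0 CPM at P7, with ranges that overlapped (33.2 to 56.2 and 29.2 to 45.2 CPM). It then rose to between 118 and 167 CPM in adults, by 1.94 (SE 0.12, adjusted p = 6.49e-09). At P7 the gene was 2-fold or more lower in CB than in HIP of the same mice (−1.25, SE 0.072, adjusted p = 4.94e-08), and Gad1 was not (0.15, SE 0.049).

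The balance of the decarboxylases was taken as the log2 ratio of Gad1 to Gad2 in each library, which does not depend on library size. Per length, the geometric mean ratio in WT mice was 2.15 in CX, 2.85 in HIP and 4.97 in CB at E17.5, 2.83, 2.94 and 7.71 at P7, and 4.19, 3.64 and 6.49 in adults. These levels depend on the length used: over merged exons the ratio was 0.966 in E17.5 CX, with Gad1 no longer above Gad2, and 1.27 to 3.46 in the other WT groups, while changes between groups are the same on either length. The ratio rose in CX by 0.40 from E17.5 to P7 (exact permutation test, adjusted p = 0.0357 over 6 steps) and by 0.57 to adult (adjusted p = 0.00866), in HIP by 0.31 from P7 to adult (adjusted p = 0.00866) and in CB by 0.63 from E17.5 to P7 (adjusted p = 0.00866). In HIP the first step was 0.04 (SE 0.14, adjusted p = 0.762), and CB was 0.25 lower in adults than at P7 (−0.25, SE 0.10, adjusted p = 0.0623), which missed the threshold of 0.1 without P7 replicate 1 or 2 or adult replicate 3 or 5 (−0.23 to −0.19). Without the embryonic mice named S3, described below, the first step in CX was 0.27 (adjusted p = 0.126). In E17.5 CB the WT mice named S3 had ratios per length of 3.37 and 4.12, and the other WT mice 5.31 to 6.56.

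Slc32a1, the vesicular GABA transporter, rose in the forebrain in the first step, and no change was called in the second. Its libraries in WT CX ran from 6.98 to 11.5 CPM at E17.5 (median 8.73) and from 27.3 to 42.4 at P7 (median 29.8), a rise of 1.79 (SE 0.14, adjusted p = 8.42e-08). Adults held 30.1, 32.9, 34.5, 35.6 and 37.6 CPM, within the P7 range, 0.13 (SE 0.10, adjusted p = 0.255) above it. HIP went from a median of 10.5 CPM (5.45 to 23.2) to 31.4 (29.8 to 35.5), a rise of 1.44 (SE 0.25, adjusted p = 0.000194), and was at 22.7 to 33.2 in adults (−0.15, SE 0.086, adjusted p = 0.141). Without choroid-rich libraries that difference was −0.30 (adjusted p = 0.00300), still under 2-fold.

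In CB the vesicular transporter was already at 35.5 to 47.2 CPM in embryos, above the P7 medians of CX and HIP, and at 36.4 to 42.5 at P7. Adult CB libraries held 65.5 to 90.6 CPM, all above the younger ones, and the change of 0.95 (SE 0.074, adjusted p = 5.98e-08) was just under 2-fold. It was past 2-fold without adult WT replicate 6 (1.005) and without libraries rich in choroid plexus markers (1.04). Slc32a1 was 2.17-fold higher in adult CB than CX and 2.65-fold higher than HIP, and it was the only one of the 7 genes called higher in adult CB. An antisense gene, Gm14205, overlaps Slc32a1 over 697 bases but had a mean count of 4.39 per library against 1103 for Slc32a1.

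Slc6a11, the astrocytic GABA transporter GAT3, was the only gene of the set called lower in adults than at P7, in CX. In WT CX its embryonic range was 8.77 to 39.5 CPM with a median of 29.2, and all P7 libraries lay between 176 and 201, 2.81 higher (SE 0.35, adjusted p = 5.39e-06). Adults were back at 77.5, 82.8, 83.4, 93.7 and 95.4 CPM, a fall of 1.10 (−1.10, SE 0.060, adjusted p = 8.74e-10), with no overlap between any of the 3 ages. HIP followed the same order, from a median of 57.8 CPM (19.4 to 85.6) to 202 (184 to 210), a rise of 1.84 (SE 0.29, adjusted p = 6.83e-05), and then 89.0 to 109 in adults, a change of −0.97 (SE 0.054) that fell short of 2-fold and passed it (−1.011) without libraries rich in choroid plexus markers.

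CB showed no such peak of Slc6a11. Its libraries were widely spread at each age, at 36.4 to 93.6 CPM in embryos, 19.4 to 92.0 at P7 and 23.2 to 58.5 in adults, and the ranges overlapped throughout. The steps were −0.14 (SE 0.30, adjusted p = 0.688) and −0.59 (SE 0.32, adjusted p = 0.109). At P7 and in adults Slc6a11 was lower in CB than in CX (−1.89 and −1.29) and HIP (−1.96 and −1.49), while at E17.5 it was higher in CB than CX (1.42) and in HIP than CX (1.21). The 5 astrocyte markers averaged 7.79, 8.28 and 8.26 log2 CPM in P7 CX, HIP and CB, and the part of astrocyte content in the regional difference was not tested.

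Abat, which degrades GABA, rose at its steepest before P7 in the forebrain. WT CX libraries held 23.8 to 38.3 CPM at E17.5 (median 29.4), 140 to 164 at P7 (median 155) and 234, 242, 243, 253 and 266 CPM in adults, with no overlap between ages. The first step was 2.28 (SE 0.10, adjusted p = 8.17e-10) and the second 0.73 (SE 0.055), short of 2-fold. In HIP the gene rose from a median of 48.6 CPM (37.2 to 68.6) to 151 (137 to 174), by 1.58 (SE 0.12, adjusted p = 1.01e-07), and adults lay at 244 to 267 (0.76, SE 0.057). CB had the highest level at each age, at 142 to 166, 240 to 297 and 341 to 397 CPM, and its steps of 0.81 (SE 0.058) and 0.39 (SE 0.067) stayed under 2-fold. The difference of CB from CX narrowed from 2.38 at E17.5 to 0.83 at P7 and 0.50 in adults.

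Slc12a2, which brings chloride into cells, was the gene that did not follow the others. In WT CX it ranged from 73.0 to 93.7 CPM at E17.5 (median 80.5) and from 58.7 to 68.6 at P7 (median 62.3), so that embryonic libraries were all above P7 ones. The difference was −0.41 (SE 0.067, adjusted p = 6.16e-05), under 2-fold. Adults were higher again, at 104, 107, 120, 123 and 126 CPM, 0.91 (SE 0.060) above P7.

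The course of Slc12a2 was the same and larger in HIP, with 92.5 to 131 CPM at E17.5 (median 113) and 55.1 to 61.6 at P7 (median 58.2), a difference of −0.97 (SE 0.088, adjusted p = 4.68e-07). That change passed 2-fold without WT replicate 5 (−1.03) or 6 (−1.003) of E17.5 and with upper-quartile normalization (−1.03). The 5 adult HIP libraries held 101, 109, 113, 162 and 185 CPM, and the rise of 1.22 (SE 0.13, adjusted p = 8.86e-07) was called. The libraries at 162 and 185 CPM were those rich in choroid plexus markers, and without them the change was 0.90, under 2-fold. CB went upward throughout, from 72.8 to 83.9 CPM at E17.5, through 103 to 138 at P7, to 167, 195, 203, 209 and 241 in adults. Its ranges did not overlap between ages, and the steps were 0.54 (SE 0.065) and 0.80 (SE 0.095), both under 2-fold.

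Choroid plexus, a secretory epithelium of the ventricles that makes Slc12a2, varied between dissections. By the mean log2 CPM of its 5 markers (Ttr, Kl, Folr1, Clic6, Kcnj13), 16 of the 102 libraries, 6 WT and 10 mutant, lay above 3, a limit chosen after the values were seen. The genotypes were uneven in P7 CB, where 5 of 6 mutant and 1 of 6 WT libraries lay above it (means of 3.92 and 1.07), and its part in the genotype values of Slc12a2 there was not tested. None of these 16 was from CX, where the WT groups averaged −2.37 to −0.00. In adult HIP the 2 WT libraries above the limit had Slc12a2 at 162 and 185 CPM and the other 3 at 101 to 113, and in P7 HIP 1 mutant library above it had 99.6 CPM and the other 5 had 55.2 to 64.2. In adult CB the WT libraries above the limit had 209 and 241 CPM and the others 167 to 203. The pattern was not shared by every library, since the embryonic HIP library above the limit had 125 CPM within a group of 92.5 to 131, and the mutant one of adult HIP had 118 CPM within 115 to 147. How much the plexus contributed to Slc12a2 in these libraries was not tested.

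**Figure D3:**
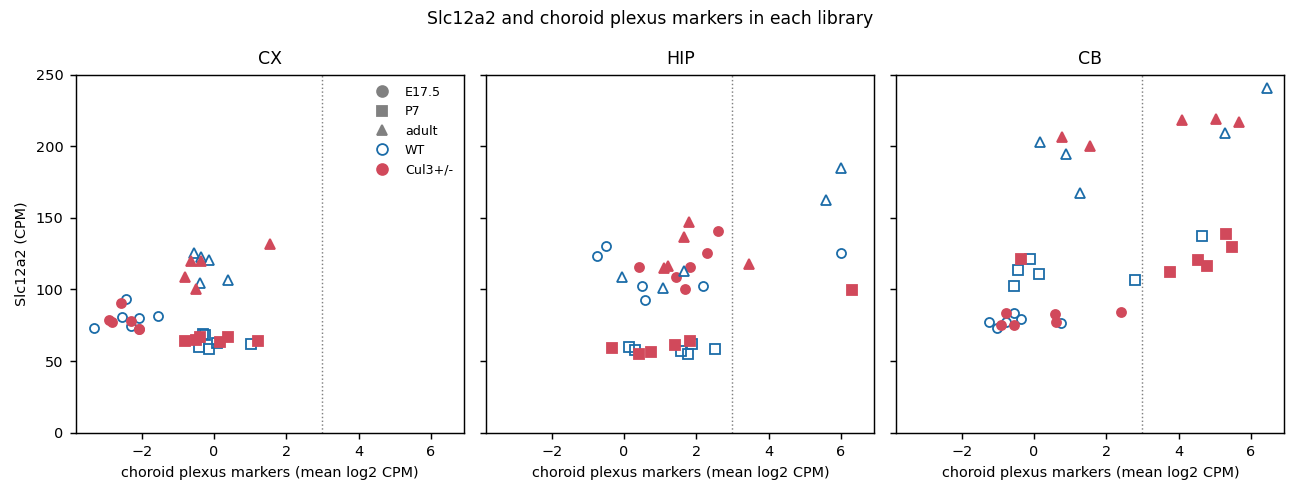
Slc12a2 (CPM) against the mean log2 CPM of the choroid plexus markers in each library, by region; circles are E17.5, squares P7 and triangles adult, open for WT and filled for Cul3+/- mice, and the dotted line is the limit of 3. No CX library passes the limit, and in adult HIP the 2 WT libraries past it, at 162 and 185 CPM, lie above the other 3.

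Slc12a5, the neuronal chloride exporter KCC2 whose start regions are printed above, showed the largest rise of the set. In WT CX it went from a range of 9.40 to 32.8 CPM at E17.5 (median 25.4) to 247 to 318 at P7 (median 297), a 12.5-fold rise (log2 3.64, SE 0.28, adjusted p = 4.44e-08). Adult CX libraries held 539, 547, 620, 628 and 630 CPM, a further rise of 1.07 (SE 0.074, adjusted p = 1.16e-08). No ranges overlapped. In HIP the embryonic libraries ran from 6.22 to 66.3 CPM (median 22.8) and the P7 libraries from 236 to 256, an 8.61-fold rise (log2 3.11, SE 0.43, adjusted p = 2.35e-05), and adults had 336, 374, 382, 395 and 419 CPM, 0.64 (SE 0.051) above P7 and under 2-fold.

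The cerebellar course of Slc12a5 differed. Embryonic CB already had 98.5 to 138 CPM, 5.85-fold above CX (adjusted p = 5.85e-05) and 5.33-fold above HIP (adjusted p = 0.00166) of the same mice. At P7 it still had 77.4 to 128 CPM (−0.18, SE 0.11, adjusted p = 0.176), by then 0.363 of the level in CX and 0.419 of that in HIP. It rose 4.98-fold to 458, 497, 524, 531 and 630 CPM in adults (log2 2.32, SE 0.13, adjusted p = 1.97e-09), and adult CB overlapped adult CX. The 4 general neuron markers averaged 7.14, 6.85 and 7.16 log2 CPM in embryonic CX, HIP and CB, and 9.08, 8.69 and 7.97 at P7, so their order between regions at P7 was that of Slc12a5, and their part in it was not tested.

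The ratio of Slc12a5 to Slc12a2, chloride exporter over importer, was computed within each library and tested over the mice by exact permutation. Per length, its geometric mean in WT mice was 0.270 in CX, 0.207 in HIP and 1.61 in CB at E17.5. In CX it ranged from 0.137 to 0.442 at E17.5 and from 3.93 to 5.68 at P7, an 18.2-fold rise (log2 4.19, SE 0.29, adjusted p = 0.00433 over 6 steps). The unadjusted exact p of this step, 0.00216, is the smallest that 6 against 6 mice allow. In HIP it went from 0.0515 to 0.701 at E17.5 to 4.37 to 5.00 at P7, a 22.1-fold rise (log2 4.47, SE 0.57, adjusted p = 0.00433). Every embryonic forebrain library was below 1 and every P7 forebrain library above it.

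The cerebellar ratio went the other way in the first step, from 1.38 to 1.93 at E17.5 down to 0.816 to 1.143 at P7, which is 0.603-fold (log2 −0.73, SE 0.10, adjusted p = 0.00433). It then rose 2.90-fold to between 2.37 and 3.39 in adults (log2 1.54, SE 0.13, adjusted p = 0.00519). These levels depend on the length used, while changes between groups do not. Over merged exons the geometric mean in WT CB was 2.18 at E17.5, 1.32 at P7 and 3.82 in adults. In CX the adult ratio was 4.64 to 6.36, 1.12-fold that of P7 (log2 0.17, SE 0.11, adjusted p = 0.160). This step was past the threshold of 0.1 without adult replicate 1 (0.23, adjusted p = 0.0381) or P7 replicate 6 (0.21, adjusted p = 0.0952), and in mutant mice it was 0.39 (adjusted p = 0.00519).

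Adult HIP fell to between 2.45 and 3.99, 0.690-fold that of P7 (log2 −0.54, SE 0.15, adjusted p = 0.00519), and this is the step into which the choroid-rich adult HIP libraries enter. Without them it was −0.31 (adjusted p = 0.0286), and in mutant mice it was −0.03 (adjusted p = 0.900). In adults the geometric mean ratio was 5.53 in CX, 3.16 in HIP and 2.82 in CB.

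**Figure D4:**
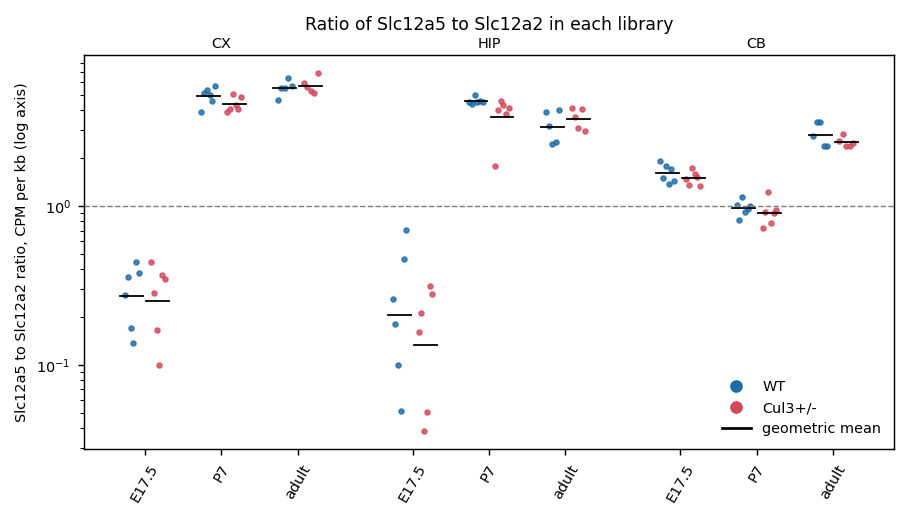
Ratio of Slc12a5 to Slc12a2, each as CPM per kb (log axis), in every library by region and age, with WT mice in blue, Cul3+/- mice in red and bars at the geometric means. All embryonic CX and HIP libraries lie below 1 (dashed) and all P7 and adult ones above it, whereas CB moves from 1.61 at E17.5 to 0.970 at P7 and 2.82 in adult WT mice. The place of CB against 1 depends on the length used, as over merged exons its P7 value is 1.32.

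Whether the change with age differed between regions was tested in 1 model with mouse as a block. From E17.5 to P7 the interaction of period and region was called for 7 of the 7 genes (77.5% of all genes tested were called), with CB changing less than CX by 4.08 on the log2 scale for Slc12a5 and 3.24 for Slc6a11 (−4.08 and −3.24). Slc12a2 was the gene whose change in CB lay above that in CX, by 0.90, with a fall in CX (−0.41) and a rise in CB (0.54). From P7 to adult 6 of the 7 were called (72.1% of all genes), all but Slc6a11 (adjusted p = 0.221), and Slc12a5 then changed 1.23 more in CB than in CX. Since most genes were called in both models, these counts do not set the 7 genes apart.

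Regions of the same WT mice were also compared at each age. At E17.5, Slc6a11 was called between HIP and CX (11.3% of genes were called), 5 genes were higher in CB than CX (18.6%), namely Slc12a5, Abat, Slc32a1, Gad1 and Slc6a11, by 1.42 to 2.55, and 4 were higher in CB than HIP (14%), namely Slc12a5, Slc32a1, Gad1 and Abat, by 1.63 to 2.42. At P7 no gene was called between HIP and CX (10.3%), with differences of −0.24 to 0.44. Slc6a11 and Slc12a5 were lower in CB than CX (32.4%), and Slc6a11, Slc12a5 and Gad2 lower in CB than HIP (26.5%). In adults none was called between HIP and CX (11.4%), and in CB Slc32a1 was higher and Slc6a11 lower than in CX (26.6%) and than in HIP (26.5%). Gad2 in embryonic CB against HIP (0.86) passed 2-fold without HIP replicate 6 (1.18), and Slc12a2 in P7 CB against HIP (0.98) passed it without HIP replicate 2 (1.02).

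Embryonic mice whose names carry S3, 2 WT and 2 mutant mice, stood apart from those named S2 and S4 for some of the genes. The labels do not say what the prefix stands for. Slc12a5 in CX was at 6.61 to 11.8 CPM in the S3 mice and at 20.4 to 32.8 in the other 8, and in HIP at 4.95 to 11.4 against 18.7 to 66.3. Slc6a11 was likewise low, at 6.02 to 9.53 CPM in CX and 7.75 to 29.8 in HIP against 22.4 to 40.3 and 47.6 to 85.6. Gad1 in HIP was at 12.4 to 18.9 CPM against 33.8 to 108. In none of these comparisons did the S3 mice overlap the others, whereas in CB Slc12a5 and Slc6a11 of the S3 mice (98.5 to 121 and 36.4 to 55.8 CPM) overlapped the rest (104 to 138 and 42.2 to 93.6 CPM). Gad1 in CB did not overlap, at 101.9 to 111.5 CPM in the S3 mice and 116.2 to 134.4 in the others. Gad2 in CB did not overlap either and was higher in the S3 mice, at 44.8 to 56.2 against 33.2 to 42.0 CPM. In CX, Gad2, Abat and Slc12a2 of the S3 mice overlapped the rest. The 4 neuron markers (6.72 to 6.94 against 7.02 to 7.41 log2 CPM in CX) and the 5 astrocyte markers (4.18 to 4.39 against 4.77 to 5.25) were lower in the same CX libraries, and their part in the result was not tested.

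Without the S3 mice the 6 rises in CX and in HIP were still called, and none was called in CB. Slc12a5 rose by 3.31 in CX and 2.66 in HIP, Slc6a11 by 2.41 and 1.47, and the ratio of Slc12a5 to Slc12a2 rose by 3.78 in CX and 3.70 in HIP on the log2 scale (adjusted p = 0.0114 for both, exact permutation test), where the HIP rise had been 4.47 with all mice.

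Striatal tissue, rich in GABA neurons, lies next to CX. The 6 striatal markers averaged 1.34 to 2.01 log2 CPM in WT and up to 3.15 in mutant libraries of E17.5 CX, and 2.81 to 3.69 in WT and 2.83 to 3.07 in mutant libraries of P7 CX. The highest of E17.5 was mutant replicate 1, which had the highest Gad2 (40.3 CPM) and Slc32a1 (13.9 CPM) of its group, and the highest of P7 was WT replicate 2, with Gad2 at 89.8 and Slc32a1 at 42.4 CPM. The part of striatal RNA in these values was not tested.

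Of 30 other genes of GABA metabolism, GABA-B receptors, GABA neuron specification and chloride or bicarbonate transport and its control, 10 rose and 2 fell in CX and 10 rose and 3 fell in HIP from E17.5 to P7, with medians of 0.50 and 0.36 on the log2 scale. Over all genes tested 21.2% rose and 14.9% fell in CX and 16.7% and 13% in HIP. In CB 25 passed the low-count filter in either step, and 4 rose and 1 fell, against 9.19% and 9.8% of all genes. From P7 to adult the counts were 2 and 4 in CX, 2 and 3 in HIP and 9 and 1 in CB, where 10.5% and 11.3%, 7.98% and 10.2%, and 16.3% and 17.3% of all genes rose and fell. In the first step the betaine and GABA transporter Slc6a12 rose by 5.23 and Slc6a13 by 4.99 in CX, and both also rose in CB (4.41 and 3.93). Slc6a12 was at 0.0355 CPM in embryonic CX and 1.46 at P7, so its fold change rests on few reads, and Slc6a13 is also expressed by meningeal cells, and all 4 meningeal markers, Slc6a13 among them, rose in CX and in CB in the same step.

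Among the falls, the potassium chloride cotransporter Slc12a7 went from 20.4 to 6.25 CPM in CX (−1.77) and from 30.1 to 8.05 in HIP (−1.93), opposite to its relative Slc12a5. The interneuron factor Lhx6 fell in CX (−1.06), and the factors Dlx1 and Dlx2, which specify GABA neurons, fell from P7 to adult in CX (−1.37 and −1.49). The mean of the GABA interneuron markers (Sst, Pvalb, Vip and Lhx6) went the other way. In WT CX it was 0.60 log2 CPM at E17.5, 3.15 at P7 and 5.43 in adults. Lhx6 is on this list and went against its mean, with 63.0, 31.6 and 14.1 CPM at these ages. The sodium bicarbonate transporter Slc4a10 rose by 3.11 in HIP in the first step and by 1.29, 1.16 and 1.92 in CX, HIP and CB in the second. Glutamine synthetase (Glul) rose in adult CX (1.68) and HIP (1.51). In CB the sole fall of the first step was Wnk3 (−1.19), a kinase that regulates the chloride cotransporters.

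The genes most like each member were sought by Pearson's r of mean log2 CPM over the 9 WT groups, among 6603 protein-coding genes that passed the filter in all 9 datasets and varied by an SD of at least 0.5. These points share libraries within a period, and r is given as a description. Slc12a5 was most like Fah, Tmem141 and Map7d2 (r = 0.99 each), Gad1 like Sptb, Dnajc12 and Prune2 (r = 0.99 each), Gad2 like Arhgef3 and Insyn1 (0.99 each) and Abat like Kcnj6, Ankrd34b and Bcas1 (0.99 each). Slc32a1 was most like Plcxd3, Shc4 and Lingo3 (0.97 to 0.98), Slc6a11 like Gyg, Pdgfb and Slc7a3 (0.95 to 0.97) and Slc12a2 like Adi1, Mtm1 and Tob1 (0.95 to 0.96). Between the members themselves r was highest for Gad1 with Abat (0.95), Gad2 with Slc12a5 (0.94) and Slc32a1 with Abat (0.93), and Slc12a2 with Slc6a11 was the negative pair (−0.50).

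The effect of the Cul3 mutation was tested within each period and region, with 6 mice of each genotype in embryos and pups and 5 in adults. None of the 7 genes was called at an adjusted p of 0.1 in any of the 9 datasets, with adjusted p-values of 0.457 or above by edgeR's quasi-likelihood test. The only gene called in each dataset by this fit, which used no pairing, was Cul3. Of all genes tested 0.00603%, 0.00586% and 0.00568% were thus called at E17.5 in CX, HIP and CB, 0.00566%, 0.00563% and 0.0057% at P7, and 0.00569%, 0.00584% and 0.00584% in adults. In E17.5 CX every same-numbered pair of WT and mutant mice deviated together, and a replicate block called 55 genes there and 0 of the 7. Fits with DESeq2 and RUVs called up to 218 and 195 genes in a dataset, again without any of the 7. Of the 63 tests of the 7 genes, 4 had an unadjusted p under 0.05, where 5% of tests without a difference would. That number was 14 of 63 with a replicate block, 9 of 63 with 3 RUVs factors and 10 of the 42 tests at E17.5 and P7 with the prefix of the mouse names as a block, and none of these tests passed after adjustment. The share of all genes with an unadjusted p under 0.05 in these fits was not compared. Without that share, the counts cannot show whether the 7 genes differ from the rest.

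Gad2 and Slc32a1 gave the widest of these 4 differences, in P7 CX. Gad2 was at 52.1, 52.2, 58.9, 60.7, 72.03 and 89.8 CPM in the WT mice and at 43.1, 44.7, 45.2, 48.1, 62.0 and 64.9 CPM in the mutant mice, which overlap. The difference was −0.32 (SE 0.14, adjusted p = 0.900), and −0.20 (adjusted p = 0.824) without the WT library at 89.8 CPM. Slc32a1 ranged from 27.3 to 42.4 CPM (median 29.8) in WT and from 24.8 to 30.3 in mutant mice, a difference of −0.24 (SE 0.097, adjusted p = 0.900) that was −0.13 (adjusted p = 0.824) without the same library, the one with the highest striatal markers.

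The other nominal differences were in HIP. Slc12a5 at P7 ranged from 236 to 256 CPM in WT and from 165 to 252 in mutant mice (−0.18, SE 0.081, adjusted p = 0.833), and without mutant replicate 1, the choroid-rich library at 165 CPM, it was −0.11 (adjusted p = 0.995). Gad2 in adults was at 144, 144, 147, 148 and 149 CPM in WT and 127, 131, 140, 142 and 147 CPM in mutant mice (−0.09, SE 0.039, adjusted p = 0.796). The ranges met in both comparisons.

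In the remaining tests the log2 fold changes of mutant over WT mice ran from −0.10 to 0.22 in E17.5 CX, −0.64 to 0.05 in E17.5 HIP and −0.19 to 0.08 in E17.5 CB. At P7 they ran from −0.16 to 0.04 in CX, −0.08 to 0.18 in HIP and −0.03 to 0.20 in CB, and in adults from −0.03 to 0.11 in CX, −0.08 to 0.15 in HIP and −0.12 to 0.04 in CB. The widest span, in E17.5 HIP, came with the largest SE, up to 0.56 for Slc12a5 (−0.64). Mouse names of E17.5 (S2, S3, S4) and P7 (C1, C2, C4) carry a prefix shared by WT and mutant mice, and with that prefix as a block, a fit chosen after the data were seen, Slc12a5 in E17.5 HIP was −0.61 (SE 0.18, adjusted p = 0.502), Slc6a11 −0.48 (SE 0.20), Slc32a1 −0.46 (SE 0.16) and Abat −0.21 (SE 0.088). These 4 genes had an unadjusted p under 0.05 in that fit and 0 of the 7 had in the fit without the block, and none passed after adjustment. Among the S4 mice, Slc12a5 in HIP was at 39.7 and 66.3 CPM in WT and at 28.1 and 29.3 in mutant mice. The neuron markers averaged 6.85 log2 CPM in WT and 6.58 in mutant mice of E17.5 HIP, and the meningeal markers 2.08 and 3.24. The part of tissue make-up in these differences was not tested. In adult CX the SE of the 7 genes was between 0.037 and 0.071. Mutant and WT ranges overlapped for each gene in each dataset.

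**Figure D5:**
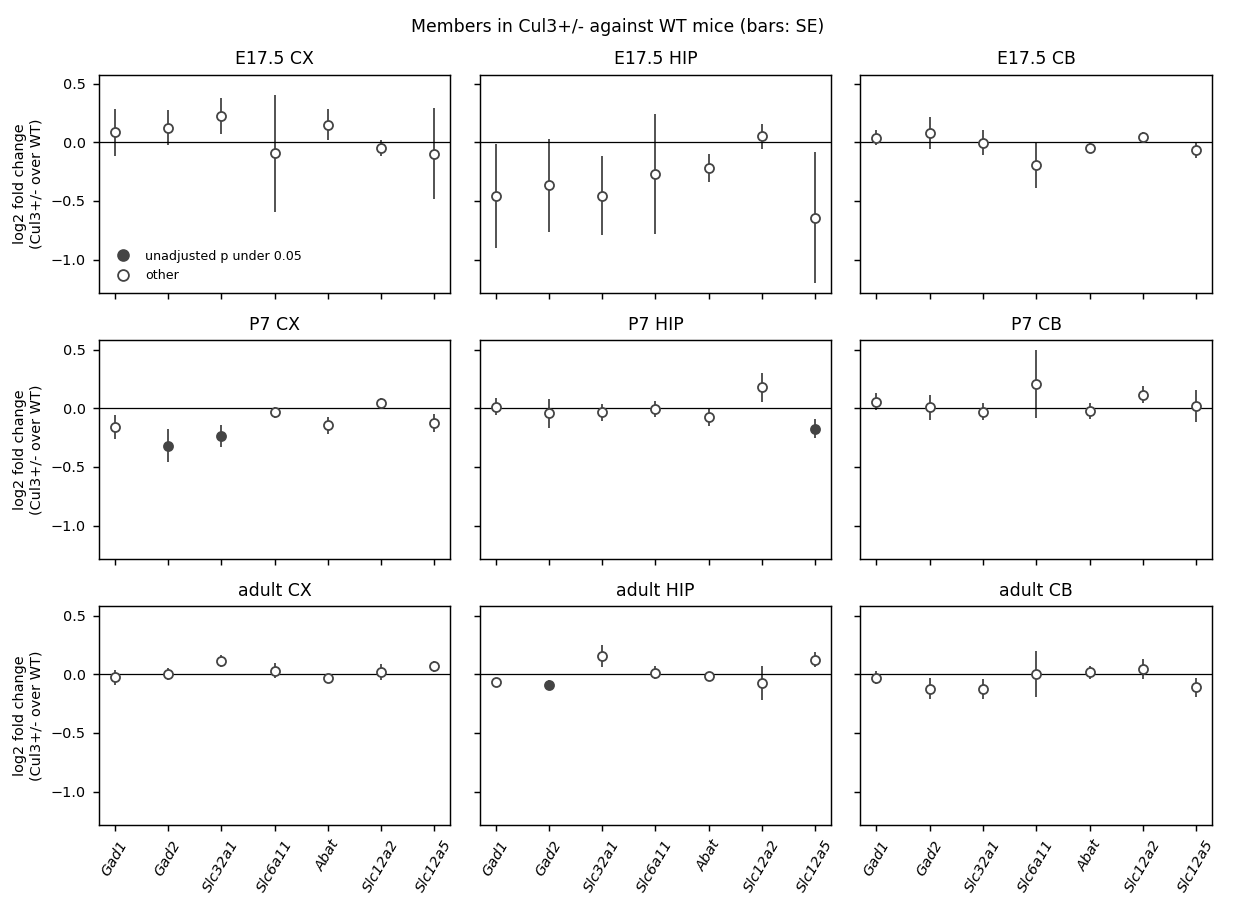
Log2 fold change of each gene in Cul3+/- over WT mice in the 9 combinations of period and region, with its SE as a bar; filled points had an unadjusted p under 0.05. All adjusted p-values lie at 0.457 or above, and bars are longest in E17.5 HIP.

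The genotype effect on these genes was not shown to depend on age or region. The interaction of genotype and period called none of the 7 in CX (0% of genes), HIP (0%) or CB (0%), and that of genotype and region none at E17.5 (0%), P7 (0%) or in adults (0.00525%). Of the 30 other genes of the pathway none was called by genotype, and 5 of their tests had an unadjusted p under 0.05, of which Slc4a10 in P7 CB (0.30, adjusted p = 0.915 by edgeR) had the smallest p and is named here after its value was seen.

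The Slc12a5 to Slc12a2 ratio did not pass the threshold between genotypes in any dataset. Differences in mean log2 ratio, mutant minus WT, ran from −0.63 (SE 0.78, E17.5 HIP) to 0.17 (SE 0.18, adult HIP). The smallest p was that of P7 HIP, with ratios per length of 4.37 to 5.00 in WT and 1.79 to 4.59 in mutant mice (−0.33, SE 0.21, exact permutation p = 0.0216, adjusted p = 0.195 over 9 datasets). Without the choroid-rich mutant library at 1.79 it was −0.13 (adjusted p = 0.390), and without mutant replicate 3 it was −0.40 (adjusted p = 0.0390). For Gad1 to Gad2 the genotype differences lay between −0.05 and 0.17, with an adjusted p of 0.883 in each dataset.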

How the data were processed

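RNA-seq libraries were made from ribosome-depleted total RNA with a stranded kit, 1 per mouse and region. The authors trimmed reads with cutadapt 1.14, aligned them with STAR 2.5.3a to GRCm38.p5 (mm10) and deposited expected counts per gene from RSEM 1.3; the strand setting is not given in the sources used here. Of the deposited values 5.76% were not whole, and all were rounded. Gene names and lengths came from GENCODE M21, which matched 53360 of 53465 identifiers. The 7 members, the pathway list of 30 genes and the marker lists were chosen with earlier results of these data known.

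Genes were filtered (filterByExpr, minimum count 10, minimum total 15), normalized by TMM and tested in each dataset with edgeR 4.0.16 quasi-likelihood models (R 4.3.3) over all genes, Benjamini-Hochberg threshold 0.1, with a fold minimum of 2 for age and region. Region models and the models of period by region had mouse as a block. SEs were derived from the fold change and its F statistic. CPM used TMM factors of 0.842 to 1.16 over 20859 genes, and log2 CPM a prior count of 2. All 7 members passed the filter in every comparison. Ratios were tested by two-sided exact permutation (scipy 1.17.1), adjusted over 9 datasets or 6 steps. Named genes were the 7 members, the 2 pathway genes with the largest called rise and fall in each age step, and the 3 genes most like each member, of which some are not reported here. The models were tested on simulated data. Replicates were single mice, and p-values measure the spread between them.

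Results were recomputed with DESeq2 1.42.0, upper-quartile normalization, 3 RUVs factors, no filter, a replicate block, Xist as a covariate, the 2 mice left out put back by either genotype, other fold minimums, mutant mice for the age and region comparisons, no mouse block and leaving out each replicate. Leaving out choroid-rich libraries and the mice named S3 was added after the data were seen. Every same-numbered pair of WT and mutant samples deviated together, with r above 0.1, in E17.5 CX alone (6 of 6 pairs, r = 0.113 to 0.757, median 0.472 against −0.0932 between unlike numbers). In E17.5 HIP, E17.5 CB and P7 CX this held for 5 of 6 pairs, with median r of 0.331, 0.294 and 0.168. P7 HIP had the fewest such pairs, 1 of 6. The main genotype fits used no pairing in any dataset. Mice with the same number also share a name prefix at E17.5 and P7, whose meaning the labels do not give, so pairing rests on this check. The prefix as a block was added after the data were seen.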

Additional observations from a re-analysis of the deposited data

Results flagged for a closer look

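Single libraries far from the rest of their group of 5 or 6 were found in 8 of 162 groups, 4 WT and 4 mutant, where chance flags about 1 in 20 groups, or 8.1. They were Slc32a1 in E17.5 HIP WT replicate 6 (23.2 CPM), Slc32a1 in P7 CX WT replicate 2 (42.4 CPM), Abat in adult CB WT replicate 3 (397 CPM), Slc12a2 in E17.5 CX mutant replicate 6 (90.4 CPM) and Slc12a2 in P7 HIP mutant replicate 1 (99.6 CPM). The log2 CPM ratio of Slc12a5 to Slc12a2 stood apart in P7 HIP WT replicate 3 (2.21) and mutant replicate 1 (0.73), and that of Gad1 to Gad2 in adult CX mutant replicate 6 (1.15).

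The change with age differed between regions by the interaction test of edgeR. From E17.5 to P7 the adjusted p was 0.000127 for Gad1, 2.89e-05 for Gad2, 3.62e-07 for Slc32a1, 2.44e-08 for Slc6a11, 5.72e-11 for Abat, 8.61e-11 for Slc12a2 and 1.80e-10 for Slc12a5. From P7 to adult it was 0.000732 for Gad1, 2.20e-06 for Gad2, 2.15e-07 for Slc32a1, 2.01e-05 for Abat, 0.0448 for Slc12a2 and 9.91e-12 for Slc12a5.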

How the results depend on the processing

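Of 2634 values under the alternatives, 2457 were kept and 177 were not, and the cause was not tested. A fold change or ratio was kept where its direction and side of the threshold stayed the same. A count of members called was kept where it was equal to the main count or within 1.5-fold of it. Of the genotype fold changes, only the 4 with an unadjusted p under 0.05 in the main fit entered. With a fold minimum of 1.5 and with none, under which 20.9% to 52.7% and 44.4% to 80.9% of all genes tested were called in the comparisons listed here, members called became 6 and 6 in CX and 6 and 6 in HIP from P7 to adult, 1 and 3 in CB from E17.5 to P7, 5 and 6 in CB from P7 to adult, 2 and 3 for E17.5 HIP against CX, 6 and 7 for P7 CB against CX, 5 and 7 for P7 CB against HIP, 1 and 4 for adult HIP against CX, 4 and 7 for adult CB against CX and 4 and 6 for adult CB against HIP; P7 HIP against CX had 4 with none. In mutant mice 1 was called in HIP from P7 to adult (20% of all genes), 0 for E17.5 HIP against CX (12%) and 1 for adult CB against CX (26.9%). The 1 in HIP was the fall of Slc6a11 (−1.01), not called in WT mice, while Gad1 (0.99) and Slc12a2 (0.90), called in WT mice, were under 2-fold in mutants, as was Gad2 in CX from E17.5 to P7 (0.84).

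Signs turned in small differences. In mutant mice Slc6a11 in CB from E17.5 to P7 was 0.27, E17.5 HIP against CX was −0.13 for Gad1, −0.31 for Slc32a1 and −0.27 for Slc12a5, E17.5 CB against CX was 0.0708 for Slc12a2, and P7 HIP against CX was 0.205 for Slc32a1 and 0.0570 for Abat. Without the S3 mice Slc32a1 in CB from E17.5 to P7 was 0.0167, Gad2 in E17.5 HIP against CX 0.24 (0.0945 without the mouse block) and Slc6a11 in E17.5 CB against HIP −0.0659. In P7 HIP against CX, Slc32a1 was 0.0432 with upper-quartile normalization, 0.00862 with DESeq2 and 0.0253 with no filter, and Abat 0.00932 with upper-quartile normalization. Without choroid-rich libraries adult HIP against CX was −0.0186 for Abat and −0.12 for Slc12a2, and between genotypes the Slc12a5 to Slc12a2 ratio in adult HIP was −0.11 and that of Gad1 to Gad2 in E17.5 HIP 0.0312. The adult CX ratio of Slc12a5 to Slc12a2 was −0.00975 with the 2 mice put back by the table. Age steps of Slc12a5 to Slc12a2 from P7 to adult were 0.39 in CX and −0.0335 in HIP in mutant mice, and without the S3 mice Gad1 to Gad2 from E17.5 to P7 was 0.27 in CX and −0.0326 in HIP.

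With each replicate left out in turn, values ran from −0.34 to 0.0544 for Slc6a11 in CB from E17.5 to P7, −0.38 to 0.0512 for Gad2 and −0.0583 to 0.29 for Slc12a5 in E17.5 HIP against CX, −0.0365 to 0.0310 for Slc12a2 in E17.5 CB against CX, and −0.0516 to 0.12 for Slc32a1 and −0.0692 to 0.0310 for Abat in P7 HIP against CX. Genotype differences in Slc12a5 to Slc12a2 ran from −0.29 to 0.18 in E17.5 CX, −0.40 to −0.13 in P7 HIP and −0.0133 to 0.10 in adult CX. Those in Gad1 to Gad2 ran from −0.0883 to 0.0570, −0.13 to 0.0312 and −0.165 to 0.0407 in E17.5 CX, HIP and CB, −0.0347 to 0.0863 in P7 CB, −0.0465 to 0.00946 in adult CX and −0.000729 to 0.0390 in adult HIP. Age steps ran from 0.10 to 0.23 for Slc12a5 to Slc12a2 in CX from P7 to adult, and for Gad1 to Gad2 from −0.0465 to 0.12 in HIP from E17.5 to P7 and −0.31 to −0.19 in CB from P7 to adult.

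With the replicate block, E17.5 CX, the paired dataset, had 55 genes called by genotype where the unpaired fit called 1, and 0 of the 7 members; Slc32a1 there was 0.22 (adjusted p = 0.289 by edgeR). In the other 8 datasets, where not every pair deviated together, the block called 0 to 2 genes and 0 members. With the mouse name prefix as a block 1 gene and 0 members were called in each of the 6 datasets of E17.5 and P7. No alternative called a member by genotype, while genes called ran up to 218 with DESeq2 and 195 with RUVs. Depth did not limit detection of the members, each with at least 92 counts in a library.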

Other observations

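The 2 adult mice left out had the following values. The mouse that the labels call WT and the quality control table mutant had Gad1 at 284, 306 and 531 CPM and Slc12a5 at 522, 399.5 and 516 CPM in CX, HIP and CB, with Cul3 at 196, 203 and 227 CPM. The mouse that the labels call mutant and the table WT had Gad1 at 299, 302 and 492 CPM and Slc12a5 at 655, 442 and 508 CPM, with Cul3 at 95.7, 99.0 and 121 CPM. In the adults compared, mean Cul3 in CX, HIP and CB was 184, 197 and 200 CPM in WT and 95.0, 98.9 and 122 CPM in mutant mice. Cul3 of both mice thus lay nearer the mean of the genotype in the labels. With both put back by the table, the adult genotype fits called 0 genes, so that Cul3 was not called either.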
